A study of Mus musculus with 8 samples.

Results

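The myelin genes described here are 9 genes chosen by name: Mbp, Mobp, Mal, Cldn11, Mog, Mag, Cnp, Opalin and Ermn. All 9 were found by Ensembl identifier among the 55450 genes of the bulk count table, all 9 passed the filter that kept 20466 genes for testing, and all 9 were also present in the single-cell table. Myelin is the membrane that oligodendrocytes wrap around axons in the central nervous system. Its compact layers are held together by proteins such as Mbp, while other proteins occupy the channels of cytoplasm, the outer surface or the face next to the axon. Oligodendrocytes arise from oligodendrocyte precursor cells (OPCs), which pass through a differentiating stage before myelin proteins are made in quantity.

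The median eminence (ME) is the floor of the third ventricle, a neuroendocrine region whose ventricular wall is formed by tanycytes, the specialised ependymal cells that express Rax. A single-cell library was made from the ME of 10 pooled wild-type female C57BL/6 mice aged 2 months, after papain dissociation, with the 3′ chemistry of 10x Genomics. Bulk libraries were made from microdissected ME of C57BL/6 mice labelled as aged 2 months, 3 of them wild type (control) and 4 carrying the genotype Rax::BrafV600E (mutant). The study's methods give the background as C57BL/6N. The mutant mice carried Rax-CreERT2 with an inducible Braf allele, and ME tissue was collected 2 months after tamoxifen, when tumors had formed. The methods give tamoxifen to adult mice, so this interval and the labelled age are hard to reconcile. The age of the bulk mice at collection, and whether it matched that of the single-cell mice, is therefore unclear. The labels give no sex for the bulk mice. Rax marks tanycytes, so the allele was aimed at these cells and not at oligodendrocytes. The comparison asks how the tissue changed once tumors had formed.

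The 9 genes lie on different chromosomes or far apart (GRCm38, GENCODE M21). Mbp lies on chromosome 18 (82475146 to 82585637, plus strand), Mobp on chromosome 9 (120149707 to 120181484, plus strand), Mal on chromosome 2 (127633226 to 127656695, minus strand) and Cldn11 on chromosome 3 (31149920 to 31164324, plus strand). Mog lies on chromosome 17 (37010743 to 37023398, minus strand), Mag on chromosome 7 (30899176 to 30914873, minus strand) and Cnp on chromosome 11 (100574904 to 100591729, plus strand). Opalin lies on chromosome 19 (41061710 to 41077113, minus strand) and Ermn on chromosome 2 (58045113 to 58052864, minus strand). Mobp overlaps Gm38642 on its own strand, and Mbp, Mog, Cnp and Ermn each overlap 1 gene on the other strand, which bulk reads without strand could not tell apart. Sequence shared with other genes was slight, at most 0.781% of the 50-base words of any member (Ermn).

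Bulk libraries held between 4928456 and 13816596 counts. At an equal depth of 4928456 counts, between 16771 and 40083 genes were detected, with control 3, control 2 and mutant 1 at the low end (16771, 20650 and 23618) and mutant 3 and mutant 4 at the high end (40083 and 39508). Control 1 (33213) lay apart from the other control libraries, and control 3 held Cspg4, an OPC marker, at 0 counts. The single-cell library held 990 cell barcodes, all different, with 3284 to 57119 unique molecular identifiers (UMIs) per cell and a median of 7832. All 8 oligodendrocyte markers used for naming clusters were tested in bulk, and 7 of them (Ugt8a, Aspa, Gjb1, Hapln2, Tspan2, Ninj2 and Gal3st1) summed to 317 to 487 counts per 1000000 (CPM) in controls and 206 to 309 CPM in mutants. The sum over all 8 overlapped between the groups. Of the 8, 1 lay lower in mutants without overlap, where 3.18% of all genes did, and Gal3st1 had a log2 fold change of 1.85. The Schwann cell markers summed to between 5.10 and 37.1 CPM in the 7 bulk libraries, with 4 of 6 past the filter. Among them Pmp2, a protein of peripheral myelin, was at 0 to 0.565 CPM.

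Promoter windows of 8 members were in the RefSeq table used (GRCm38.p6). The 250 bases before the start are shown for Mog and Cnp, which had the largest and the smallest change in bulk, and for Cldn11 and Mal, the members that stood highest in a cluster outside the lineage relative to free RNA. Each is written 5′ to 3′ on the gene's own strand, and capitals mark the word CTGGCAC or CTGGTAC on either strand, the core recognised by Myrf, a transcription factor of maturing oligodendrocytes.
Mog chr17:37023399-37023648 (minus strand): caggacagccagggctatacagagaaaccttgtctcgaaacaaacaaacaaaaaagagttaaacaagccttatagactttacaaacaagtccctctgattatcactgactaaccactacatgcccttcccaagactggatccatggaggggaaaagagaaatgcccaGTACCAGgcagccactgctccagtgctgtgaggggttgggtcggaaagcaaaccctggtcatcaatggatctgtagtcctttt
Cnp chr11:100574689-100574938 (plus strand): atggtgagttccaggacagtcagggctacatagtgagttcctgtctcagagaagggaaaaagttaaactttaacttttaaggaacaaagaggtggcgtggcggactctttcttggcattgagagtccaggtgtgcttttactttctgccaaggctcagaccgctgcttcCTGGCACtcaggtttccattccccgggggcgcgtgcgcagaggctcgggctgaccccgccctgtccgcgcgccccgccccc
Cldn11 chr3:31149670-31149919 (plus strand): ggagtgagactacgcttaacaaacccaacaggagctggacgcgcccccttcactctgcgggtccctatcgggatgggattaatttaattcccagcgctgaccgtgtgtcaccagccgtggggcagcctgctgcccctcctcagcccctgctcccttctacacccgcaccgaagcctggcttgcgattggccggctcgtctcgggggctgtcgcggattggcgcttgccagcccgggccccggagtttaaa
Mal chr2:127656696-127656945 (minus strand): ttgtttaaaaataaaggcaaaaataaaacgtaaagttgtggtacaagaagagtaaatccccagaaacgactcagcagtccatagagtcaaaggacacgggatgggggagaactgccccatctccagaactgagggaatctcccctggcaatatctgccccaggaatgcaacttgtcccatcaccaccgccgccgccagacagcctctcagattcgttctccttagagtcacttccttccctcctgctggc
The Myrf word began 83 bases before the start in Mog, on the other strand, and 81 bases before it in Cnp. Mag held CTGGCAC as well, and the 3 members with either word were Cnp, Mag and Mog of 8 searched. Of 32851 windows of all genes, 5.93% held either word. The windows of Cldn11 and Mal held neither. The word ACAAAG, of the kind bound by Sox proteins such as Sox10, was found in 4 members (Cnp, Mag, Mobp and Opalin) and in 16.5% of all windows, and ACAATG in Ermn and in 10.7% of all windows. Mobp held ACAAAG at 6 places between 115 and 243 bases before its start. These matches describe letters in short windows.

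In wild-type ME the myelin genes were concentrated in 1 small cluster. Of the 44759 UMIs of the 9 members, 72.1% lay in 44 cells (4.44% of all cells), and each of the 9 genes reached its highest level there. A further 15.2% lay in 60 OPC-like cells, and the rest was spread over 886 cells. The 11 clusters were built with the 9 members left out of the variable genes. The 44 cells were called oligodendrocyte-like because all 8 oligodendrocyte markers were at least 3 times higher there than in the other cells, and 27 of the 28 other myelin genes were too. With 1 library there is no replicate, so no test was made, and intervals at 95% cover counting error only.

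Levels in the oligodendrocyte-like cells spanned more than an order of magnitude. Mbp, which binds the inner faces of the membrane together, stood at 11533 CPM (UMIs per 1000000 UMIs; exact Poisson interval 11281 to 11790). Cnp, an enzyme of the cytoplasmic channels, followed at 8266 CPM (8052 to 8484), and Cldn11, which forms the tight junctions between myelin layers, at 8081 CPM (7870 to 8296). The intervals of Cnp and Cldn11 overlapped, and every other neighbouring pair in this order was separated by more than counting error.

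Mag, an adhesion molecule of the face next to the axon, stood at 5004 CPM (4838 to 5175), and Mobp, a small basic protein of compact myelin, at 4668 CPM (4508 to 4832). Mal, a lipid-raft proteolipid that takes part in membrane sorting, stood at 3842 CPM (3696 to 3991), and Mog, a protein of the outermost surface, at 3384 CPM (3248 to 3524). The lowest were Ermn, a cytoskeletal protein of mature oligodendrocytes, at 1274 CPM (1191 to 1361) and Opalin, a transmembrane glycoprotein of oligodendrocytes, at 998 CPM (925 to 1076).

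Cells of this cluster differed widely in how much they held. Mbp ran from 42 UMIs in the lowest cell over a median of 136.5 to 1139 in the highest, Cnp from 16 over 101.5 to 372, and Cldn11 from 19 over 93 to 359. Mog ran from 8 over 41.5 to 196, Mag from 12 over 57.5 to 327, and Mobp from 14 over 48 to 286. Ermn ran from 2 over 19.5 to 49 and Opalin from 2 over 10.5 to 73. Mal was the exception, since 2 of 44 cells had no UMI while the highest cell had 197. In 42 of 44 cells all 9 members were detected, and no cell of any other cluster held all 9. When each cell was thinned to 3000 UMIs, which left out no cell, the share of oligodendrocyte-like cells with a UMI stayed at 100% for 6 members and at 95.5% for Mal, and went from 100% to 97.7% for Ermn and to 88.6% for Opalin.

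**Figure D1:**
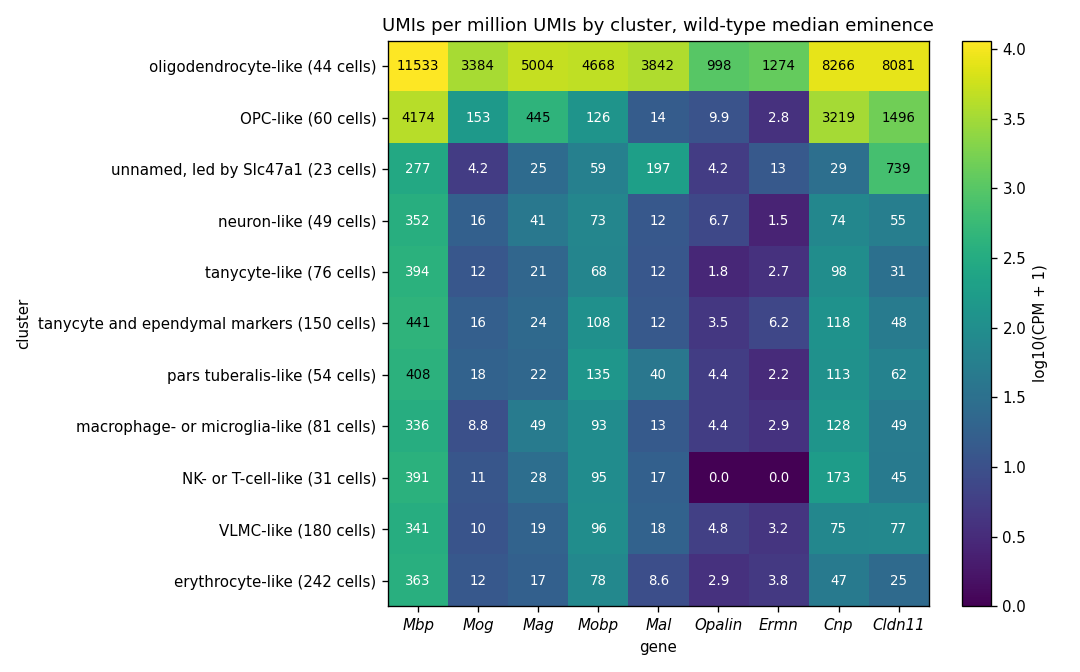
CPM (UMIs per 1000000 UMIs) of the 9 myelin genes (columns) in 11 clusters of the wild-type single-cell library (rows, with cell numbers); colour gives log10(CPM + 1) and the printed number gives CPM. All 9 genes peak in the 44 oligodendrocyte-like cells, the cluster led by Slc47a1 stands out for Cldn11 (739 CPM) and Mal (197 CPM), and Mbp lies between 277 and 441 CPM in every cluster outside the lineage.

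OPC-like cells held some members in quantity and others hardly at all. These 60 cells had 7 of 8 OPC markers and all 9 differentiating oligodendrocyte genes at 3 times the level of the other cells or more. Relative to the oligodendrocyte-like cells, Cnp stood at 38.9% (37.1 to 40.9) of the CPM there and Mbp at 36.2% (34.7 to 37.8). Cldn11 stood at 18.5%, Mag at 8.90%, Mog at 4.53% and Mobp at 2.70%. Opalin at 0.994%, Mal at 0.369% and Ermn at 0.223% were close to absent. The members thus fell into an order from Cnp and Mbp down to Mog. The lower values were not ordered in the same way. Mobp, at 126 CPM in OPC-like cells, lay within the 58.7 to 135 CPM of the clusters outside the lineage. The intervals of Opalin (0.398 to 2.06%), Mal (0.177 to 0.680%) and Ermn (0.0269 to 0.807%) overlapped. Ermn, at 2.84 CPM, lay below the 3.81 CPM of erythrocyte-like cells.

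The OPC-like cells divided when clusters were drawn more finely (resolution 1.2). A group of 38 cells held Pdgfra at 542 CPM, a receptor of OPCs that was also at 305 CPM in VLMC-like (vascular and leptomeningeal) cells. The group held Enpp6, an enzyme of newly differentiating oligodendrocytes, at 0 UMIs (exact Poisson interval 0 to 9.38 CPM). The other 22 cells held Enpp6 at 1116 CPM and Pdgfra at 6.41 CPM. Gpr17, a receptor of the stage between OPC and mature cell, stood at 326 CPM in the first group and 1260 CPM in the second. Cnp stood at 463 CPM (398 to 535) in the Pdgfra cells and at 6694 CPM in the Enpp6 cells, beside the 8266 CPM of the oligodendrocyte-like cells. Mbp stood at 399 CPM in the Pdgfra cells and 8932 CPM in the Enpp6 cells, and Cldn11 at 99.2 and 3257 CPM. Erythrocyte-like cells, used below as the measure of free RNA, held Mbp at 363 CPM, within the interval of the Pdgfra cells (339 to 467). They held Cnp at 46.6 CPM and Cldn11 at 24.7 CPM, below the Pdgfra cells.

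Mag and Mog came between. Mag stood at 17.8 CPM (7.16 to 36.7) in the Pdgfra cells and 984 CPM (877 to 1101) in the Enpp6 cells, and Mog at 5.09 CPM (0.616 to 18.4) and 340 CPM (278 to 411). Only 12 of the 22 Enpp6 cells had a Mog UMI, while 21 had a Cnp UMI. Mobp stood at 86.5 CPM and 176 CPM (133 to 230), Mal at 12.7 and 16.03 CPM, and Opalin at 5.09 and 16.03 CPM with intervals that overlapped. The intervals of Mag, Mog, Mobp, Mal and Opalin in the Pdgfra cells all held the erythrocyte-like level (16.6, 12.4, 78.5, 8.56 and 2.85 CPM). For these members and Mbp, the Pdgfra cells could not be told apart from free RNA by this level. The level of Mbp and Mobp rested in part on 6 erythrocyte-like cells with 20 or more Mbp UMIs, described below. Without them, a setting chosen after seeing the data, erythrocyte-like cells held Mbp at 219 CPM and Mobp at 46.3 CPM. Both then lay below the intervals of the Pdgfra cells (339 to 467 and 59.9 to 121 CPM). Mag, Mog, Mal and Opalin stayed within theirs. Ermn had 0 UMIs in the Enpp6 cells (exact Poisson interval 0 to 11.8 CPM). In the Enpp6 cells the pooled CPM of Cnp, Mbp and Cldn11 was therefore near or within 3 times the oligodendrocyte-like level. That of Mobp, Mal, Opalin and Ermn was not. Single cells weighed heavily in the pooled values. An Enpp6 cell held a median of 35 Mbp UMIs (highest 914), 20 of Cldn11 (289) and 65.5 of Cnp (274). The medians in oligodendrocyte-like cells were 136.5, 93 and 101.5. The Enpp6 cells had more UMIs (median 17563) than the Pdgfra cells (10177) and the oligodendrocyte-like cells (13956).

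**Figure D2:**
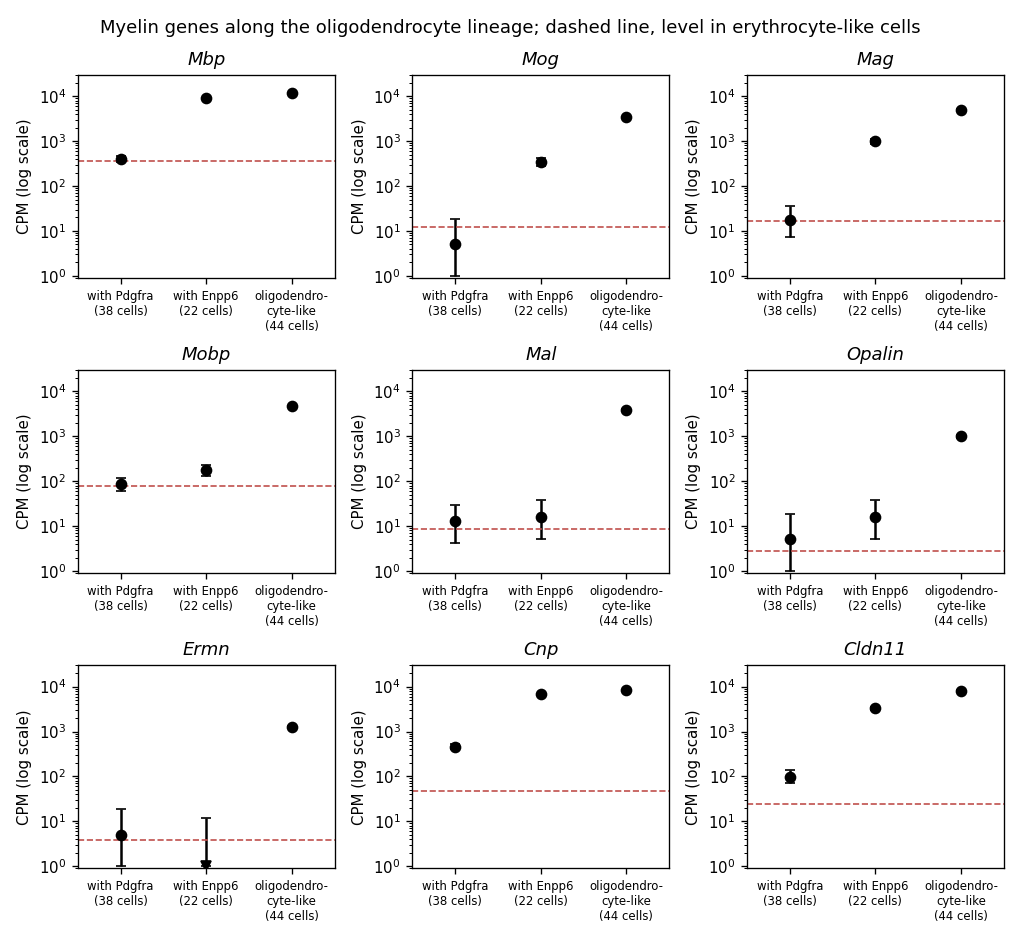
CPM (log axis) of each myelin gene in the 38 Pdgfra cells, the 22 Enpp6 cells and the 44 oligodendrocyte-like cells, with exact 95% Poisson intervals cut at 1 CPM; a triangle marks 0 UMIs and the dashed line marks the erythrocyte-like level. Cnp, Mbp and Cldn11 are already at 6694, 8932 and 3257 CPM in the Enpp6 cells, while Mal, Opalin and Ermn are at 16.03 CPM or less.

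A low level of the same transcripts was found in every cell type. Erythrocyte-like cells, which should lack myelin transcripts, were taken as the measure of free RNA (242 cells, median 7708 UMIs per cell, against 13956 in oligodendrocyte-like cells). An Mbp UMI was found in 77.7% of them (exact Clopper-Pearson interval 71.9 to 82.8), a Cnp UMI in 31.8%, a Mobp UMI in 29.8% and a Cldn11 UMI in 19.0%. For the other members the share was 13.6% (Mag), 10.7% (Mog), 7.02% (Mal), 3.31% (Ermn) and 2.48% (Opalin). In the other clusters outside the lineage 81.5% to 100% of cells had an Mbp UMI, at 277 to 441 CPM against 363 CPM in erythrocyte-like cells, and these shares were not read as expression.

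The free RNA was not made up like the cells. Per cell, the erythrocyte-like cluster held 1.75% (1.63 to 1.89) of the Mbp of an oligodendrocyte-like cell and 0.937% (0.796 to 1.10) of its Mobp. For Cnp the figure was 0.314% (0.255 to 0.384), and for Mog, Mag, Mal, Opalin, Ermn and Cldn11 it lay between 0.124% and 0.204%. Mbp and Mobp were thus in excess over the other members. Their transcripts are known to be carried into oligodendrocyte processes and translated there, given here as background. Per 100 Mbp UMIs, erythrocyte-like cells held 6.82 Cldn11 UMIs (5.04 to 9.03) where oligodendrocyte-like cells held 70.1 (67.7 to 72.5), and 3.41 Mog UMIs where those held 29.3.

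Part of this RNA came in a few cells. Of 886 cells outside the 2 lineage clusters, 17 held 20 or more Mbp UMIs (a limit set after these values were seen), with up to 92 in 1 cell, and they carried 22.9% of the Mbp and 21.1% of the Mobp there. Of the 17, 6 were erythrocyte-like, 4 tanycyte-like, 3 in the cluster with tanycyte and ependymal markers, 2 neuron-like, 1 VLMC-like (vascular and leptomeningeal) and 1 pars tuberalis-like. Per 100 Mbp UMIs they held 21.6 Mobp UMIs but 4.45 of Cnp, 2.23 of Cldn11 and 1.53 of Mog, and no Ermn UMI. Since the cells were chosen by their Mbp, these ratios are a description. Without the 6 such cells, an erythrocyte-like cell held 1.06% (0.960 to 1.16) of the Mbp of an oligodendrocyte-like cell and 0.553% (0.446 to 0.678) of its Mobp, and 11.1 Cldn11 UMIs (8.14 to 14.9) per 100 Mbp UMIs.

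Some members went beyond the free-RNA level in cells of other types. The clearest case was an unnamed cluster of 23 cells led by Slc47a1, Nov, Igfbp6 and Krtdap (median 8721 UMIs). It held Cldn11 at 739 CPM (633 to 856), with a UMI in 23 of 23 cells, a median of 7 UMIs and at most 26. It also held Mal at 197 CPM (145 to 262), with a UMI in 12 of 23 cells and at most 10. In the same cells Mbp stood at 277 CPM, Cnp at 29.4 CPM and Mog at 4.20 CPM (1 UMI), all near their erythrocyte-like levels of 363, 46.6 and 12.4 CPM. Thinned to 3000 UMIs, 82.6% of the cells still had a Cldn11 UMI and 39.1% a Mal UMI, against 6.61% and 1.65% of erythrocyte-like cells. Claudin-11 is also known from tight junctions outside myelin, such as those of Sertoli cells. Of the oligodendrocyte markers, 0 of 8 reached 3 times the level of the other cells in this cluster.

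Cnp, Mag, Mal and Cldn11 were compared with the free-RNA make-up in the same way. Per 100 Mbp UMIs, erythrocyte-like cells held 12.8 Cnp UMIs (10.3 to 15.9), and 7 of the 8 other clusters outside the lineage held more, from 21.1 in neuron-like cells to 44.3 in NK- or T-cell-like cells, while the cluster led by Slc47a1 held 10.6. The erythrocyte-like value rested in part on the 6 cells rich in Mbp, which carried 41.2% of the Mbp of that cluster. Without the 17 such cells, a setting chosen after seeing the data, the erythrocyte-like value was 20.9 (16.6 to 26.2). NK- or T-cell-like cells at 44.3 (28.0 to 68.5), macrophage- or microglia-like cells at 38.2 (29.5 to 49.1) and the cluster with tanycyte and ependymal markers at 36.4 (29.6 to 44.5) then lay above it by more than counting error. The intervals of the other 5 clusters overlapped with it. After thinning to 3000 UMIs, 41.9%, 35.8% and 29.3% of the cells of these 3 clusters had a Cnp UMI, beside 33.3% of pars tuberalis-like cells and 12.8% of erythrocyte-like cells. Mag stood at 14.5 per 100 Mbp UMIs (9.73 to 20.9) in macrophage- or microglia-like cells and 11.7 (8.68 to 15.5) in neuron-like cells, against 4.59 (3.17 to 6.44) in erythrocyte-like cells, but without the 17 cells the last was 7.35 (4.997 to 10.5) and the intervals overlapped. Mal stood at 9.73 (5.64 to 15.8) in pars tuberalis-like cells against 2.36 (1.39 to 3.75), and at 13.5 (7.78 to 22.2) against 3.79 (2.19 to 6.13) without the 17 cells. Cldn11 stood at 22.5 (17.8 to 28.1) in VLMC-like cells against 6.82 (5.04 to 9.03), with 15 UMIs in the highest VLMC-like cell. Without the 17 cells it stood at 24.4 (19.3 to 30.6) against 11.1 (8.14 to 14.9). Besides these and the cluster led by Slc47a1, the Cldn11 intervals outside the lineage then overlapped with the erythrocyte-like one. The levels themselves were low: Cnp stood at 128 CPM in macrophage- or microglia-like cells and Mal at 39.7 CPM in pars tuberalis-like cells. Cldn11 stood at 76.5 CPM in VLMC-like cells. For Cnp, Mag and Cldn11, intervals in CPM separated more clusters from erythrocyte-like cells than the ratios without the 17 cells did. Mag stood at 48.6 CPM (33.5 to 68.3) in macrophage- or microglia-like cells and 41.1 CPM (31.0 to 53.5) in neuron-like cells. Erythrocyte-like cells held it at 16.6 CPM (11.6 to 23.2). Cldn11 in neuron-like cells stood at 54.6 CPM (42.8 to 68.6) against 24.7 CPM (18.5 to 32.4). Which measure follows free RNA more closely was not tested.

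Among the genes whose pattern over the 11 clusters was most like that of the members were Tprn (Pearson r = 0.97), Grb14 (0.95), Kcna1 (0.95), Insc (0.94), S1pr5 (0.94), Nkx6-2 (0.94) and Tmem229a (0.94). The measure was the correlation with the mean of the members' standardized log2(CPM + 1), among 8794 genes with at least 100 UMIs, and all points came from 1 library. The members' own correlations with that mean ran from 0.85 (Mal) to 0.97 (Mag). The CPM of these genes in oligodendrocyte-like cells ranged from 130 (Tmem229a) to 922 (Grb14).

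In the bulk libraries of mutant ME, myelin transcripts were on average lower than in control ME, and OPC transcripts were on average higher, but no single gene passed the test at an adjusted p below 0.05. All 9 members had a log2 fold change below 0, with a median of -1.22, while the median of all 20466 genes tested was 0.13. At an unadjusted p below 0.05, 7 of 9 members were lower and 0 were higher, where 3.89% of all genes were lower and 4.23% higher. Members called by edgeR's quasi-likelihood test after Benjamini-Hochberg adjustment numbered 0 in either direction, as did all genes (0.00% lower and 0.00% higher, smallest adjusted p 0.0541). DESeq2 called 301 genes, 0.601% of those tested lower and 0.870% higher, and 3 members (Mog, Opalin and Mal), all lower. In whole tissue, fewer cells of a type and less RNA per cell cannot be told apart. The replicates came from separate mice.

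Mog showed the clearest difference. Control libraries 1 to 3 held 103, 310 and 546 CPM (counts per 1000000 after TMM scaling), and mutant libraries 1 to 4 held 92.2, 88.0, 64.1 and 47.0 CPM. Every mutant library lay below every control library, by a narrow margin in the case of control 1. Mog was the only member without overlap (1 of 9, where 3.18% of all genes lay lower without overlap and 5.83% higher). The log2 fold change was -2.13 ± 0.49 (SE, n = 3 and 4), with an edgeR adjusted p of 0.325. Without control 1 it was -2.57, with an edgeR adjusted p of 0.0396, and without control 3 it was -1.47. Over all alternatives the adjusted p of Mog ran from 5.50e-05 (edgeR, no filter on low counts) to 0.9999 (edgeR, detected genes as a covariate).

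Opalin behaved much like Mog. It stood at 22.1, 79.3 and 100.1 CPM in the controls and at 13.9, 24.6, 13.7 and 11.6 CPM in the mutants, where mutant 2 lay just above control 1. The log2 fold change was -2.07 ± 0.49 (edgeR adjusted p = 0.359), and without control 1 it was -2.51 (edgeR adjusted p = 0.0400, with a range of 0.000785 to 0.9999 over all alternatives). Ermn, the other gene of mature cells, stood at 47.7, 77.5 and 102.6 CPM in the controls and at 43.8, 56.9, 45.6 and 21.98 CPM in the mutants. Its log2 fold change was -0.85 ± 0.38 (edgeR adjusted p = 0.610), only mutant 2 lay within the control range, and without control 3 the change was -0.54.

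Mbp, Mobp and Mal were lower on average by 2.33, 2.55 and 2.58 times, with overlap between groups. Mbp stood at 3037, 10464 and 4667 CPM in the controls and at 3848, 2724, 1658 and 2167 CPM in the mutants. Control 2 stood far above all others, and mutant 1 exceeded control 1. The log2 fold change of Mbp was -1.22 ± 0.45 (edgeR adjusted p = 0.522), and without control 2 it was -0.54.

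Mobp stood at 683, 1591 and 505 CPM in the controls and at 237, 660, 371 and 184 CPM in the mutants. Its log2 fold change was -1.35 ± 0.50 (edgeR adjusted p = 0.522), and without control 2 it was -0.68. Here mutant 2 was the highest mutant library, where for Mbp it had been mutant 1. Mal stood at 208, 493 and 425 CPM in the controls and at 129, 229, 144 and 80.1 CPM in the mutants. Its log2 fold change was -1.36 ± 0.40 (edgeR adjusted p = 0.440), and only mutant 2 lay within the control range.

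Mag, of the face next to the axon, stood at 151, 316 and 266 CPM in the controls and at 182, 120, 84.01 and 99.6 CPM in the mutants. Its log2 fold change was -1.01 ± 0.35 (edgeR adjusted p = 0.514), with mutant 1 above control 1. Cldn11 stood at 285, 484 and 174 CPM in the controls and at 202, 293, 226 and 208 CPM in the mutants. All 4 mutant libraries lay inside the control range, and its log2 fold change was -0.44 ± 0.35 (edgeR adjusted p = 0.809). Cnp stood at 656, 1822 and 1086 CPM in the controls and at 1572, 836, 765 and 1125 CPM in the mutants. Its groups overlapped fully, with a log2 fold change of -0.15 ± 0.40 (edgeR adjusted p = 0.956), which was 0.01 when library sizes alone were used for scaling. Without control 2, Cnp stood at 0.33 and Cldn11 at 0.03.

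**Figure D3:**
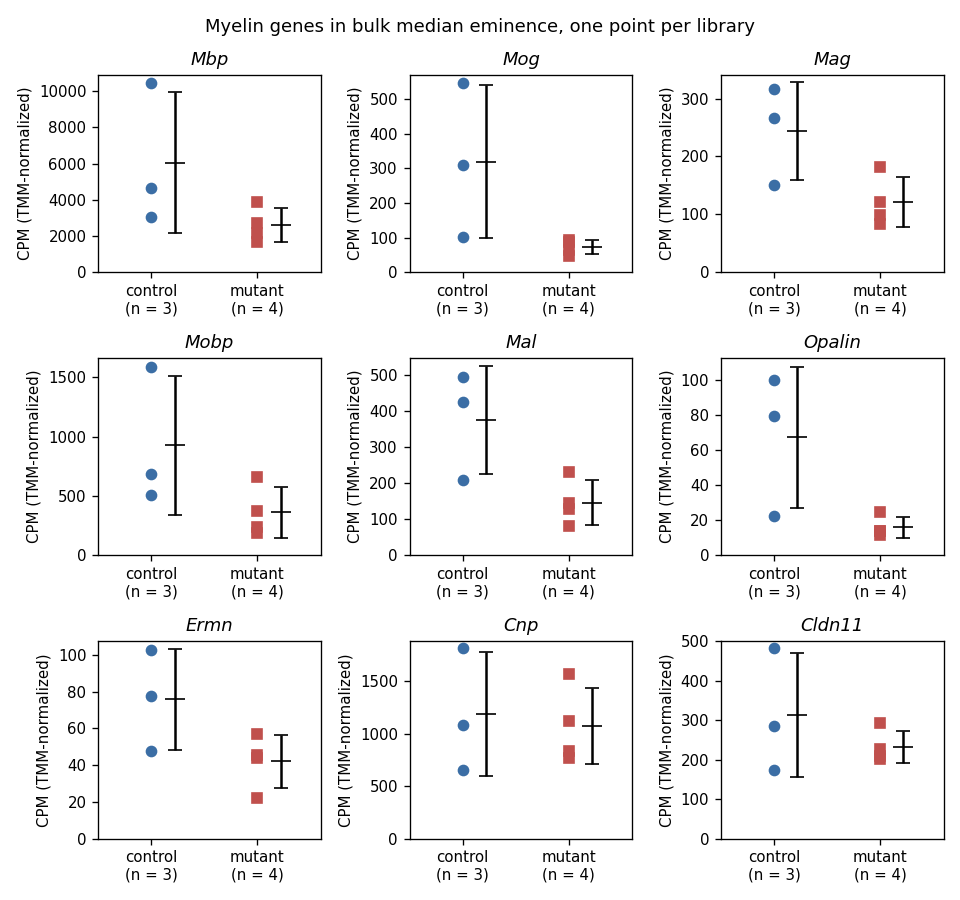
TMM-normalized CPM of each myelin gene in 3 control (circles) and 4 mutant (squares) libraries, linear axes from 0; the bar beside each group gives its mean and SD. Mog is the only gene whose mutant libraries (47.0 to 92.2 CPM) all lie below the controls (103 to 546 CPM), and Cnp and Cldn11 overlap fully.

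**Figure D4:**
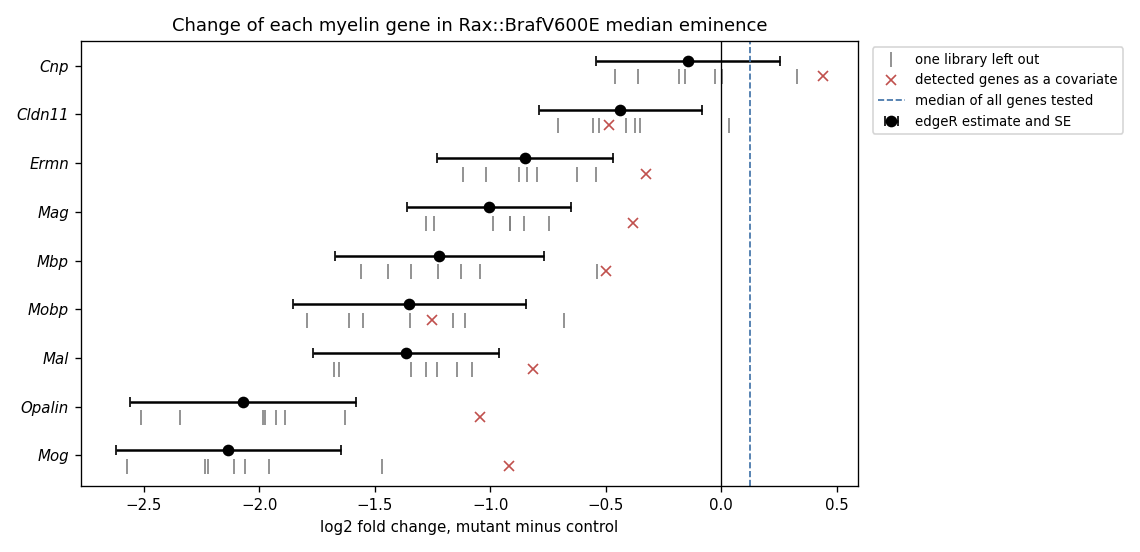
Log2 fold change (mutant minus control) of each myelin gene with its SE from edgeR (n = 3 and 4), the values with 1 library left out, and the value with the number of detected genes as a covariate; the dashed line is the median of all genes tested (0.13). Mog (-2.13) and Opalin (-2.07) lie lowest and Cnp (-0.15) is nearest to 0.

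Levels per length placed Mbp first in both groups. Per kilobase of exon, Mbp stood at 715 CPM in controls and 307 CPM in mutants, and Cnp at 327 and 295 CPM. Mog stood at 188 and 42.7 CPM per kilobase. By these group means it ranked after Mbp and Cnp in controls but also after Cldn11, Mobp and Mal in mutants. The control mean of Mog rested heavily on control 3 (546 CPM, against 103 CPM in control 1 and 310 CPM in control 2). Per kilobase, Mog also lay after Cldn11, Mobp and Mal in control 1, and after Cldn11 and Mobp in control 2. Cldn11 stood at 168 and 124, Mobp at 135 and 53.0, Mal at 135 and 52.4, Mag at 59.9 and 29.8, Opalin at 22.8 and 5.41 and Ermn at 20.9 and 11.6 CPM per kilobase.

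Ratios within a library do not depend on scaling, but they do depend on the gene divided by. Cnp was the member with the smallest bulk change, so dividing by it favours lower ratios in mutants for the others. The ratios therefore describe members relative to Cnp and are not a second test of a decrease. Per 100 counts of Cnp, Mbp stood at 430 to 574 counts in controls and 193 to 326 in mutants. Mog stood at 15.7 to 50.3 against 4.18 to 10.5, Mag at 17.3 to 24.5 against 8.85 to 14.4, and Opalin at 3.37 to 9.22 against 0.884 to 2.94. These 4 of 8 ratios had every mutant library below every control library, where 1.80% of all genes had. The ratios of Mobp, Mal, Ermn and Cldn11 overlapped between groups. The members with a high ratio of OPC-like to oligodendrocyte-like level in single cells, Cnp (38.9%) and Cldn11 (18.5%), had the smallest bulk differences. The order did not hold throughout, since Mbp (36.2%) had a bulk log2 fold change of -1.22 and Ermn (0.223%) one of -0.85. The OPC-like levels of Cnp and Cldn11 came mainly from the 22 Enpp6 cells (6694 and 3257 CPM). The 38 Pdgfra cells held them at 463 and 99.2 CPM.

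**Figure D5:**
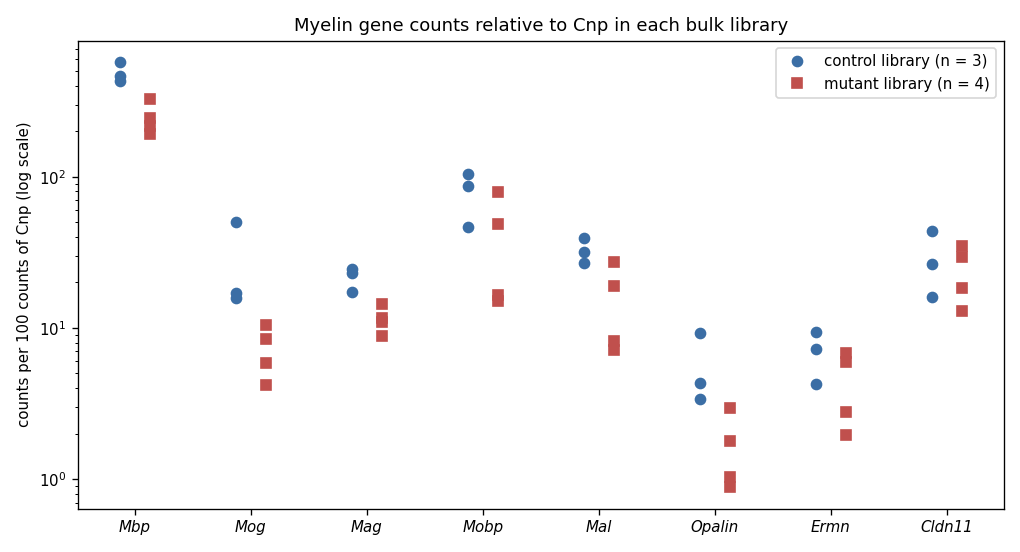
Counts of 8 myelin genes per 100 counts of Cnp (log axis) in each control (circles) and mutant (squares) library. Mbp, Mog, Mag and Opalin have no overlap between groups, with mutant libraries lower, while Mobp, Mal, Ermn and Cldn11 overlap.

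The other genes of the myelin list were mixed. That list was not limited to mature cells, and it held transcription factors such as Sox10. In OPC-like cells 10 of its 28 genes were at least 3 times higher than in the other cells. Of the 28 other myelin genes, all tested, 7 were lower and 2 higher at an unadjusted edgeR p below 0.05, beside 3.89% and 4.23% of all genes. The edgeR test passed 0 in either direction (DESeq2 called 5), and their median log2 fold change was -0.40. That median was -0.19 without control 2, -0.59 without control 1 and -0.10 with the detected-genes covariate. Among the most abundant, Car2, the carbonic anhydrase of oligodendrocytes, stood at 140.1, 576 and 688 CPM in controls and 225, 166, 165 and 132 CPM in mutants (-1.44 ± 0.46, edgeR adjusted p = 0.458), where 3 mutant libraries lay above control 1. Apod stood at a log2 fold change of -1.34 and Cd82 at -1.34, all 3 at an unadjusted p below 0.05. Tspan2 (-0.41) and Cd9 (0.44) did not reach it. Hapln2, a link protein of the node (-1.87), named after its values were seen, had groups that did not overlap. The 2 higher genes were Sox10 (1.41) and Gjc3 (0.83), also named after their values were seen.

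Genes of the earlier stages lay on the other side. Of 9 differentiating oligodendrocyte genes, 8 had a log2 fold change above 0, 4 were higher and 0 lower at an unadjusted p below 0.05, and the median was 1.16. Gpr17 stood at 32.9, 29.2 and 13.3 CPM in controls and 223.5, 92.4, 82.2 and 246 CPM in mutants (2.68 ± 0.51, edgeR adjusted p = 0.194), with no overlap. Neu4 (2.998) was the other of the 6 most abundant without overlap, while Bcas1 (0.34), Tcf7l2 (-0.05), Fyn (1.06) and Itpr2 (0.68) overlapped. All 8 OPC markers were above 0, 7 were higher at an unadjusted p below 0.05, 5 did not overlap, and the median was 2.104. Over all genes tested, 4.23% were higher at that p and 5.83% lay higher without overlap. Olig1, a transcription factor of the lineage, stood at 149, 425 and 175 CPM in controls and 1130, 601, 515 and 1264 CPM in mutants (1.81 ± 0.48, edgeR adjusted p = 0.411). Lhfpl3 stood at 2.74, Cspg4 at 3.36, Olig2 at 2.06, Vcan at 1.95 and Pdgfra at 0.74. In the single-cell library Pdgfra was not limited to OPC-like cells (305 CPM), since VLMC-like cells also held it at 305 CPM. No gene of these lists passed the edgeR test.

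Other measures moved with the same groups. The number of genes detected at equal depth was lowest in control 3 and control 2, one or the other of which was the highest library for every member. It was highest in mutant 3 and mutant 4, one or the other of which was the lowest mutant library for every member but Cldn11. With that number as a covariate, the members' median log2 fold change was -0.50, 8 of 9 were still below 0, Mog stood at -0.92 and Cnp at 0.44, and 0 of 9 reached an unadjusted p below 0.05. Summed VLMC markers stood at 1104 to 2918 CPM in controls and 431 to 792 in mutants, with 3 of 5 tested markers lower without overlap. Summed endothelial markers stood at 233 to 427 against 94.5 to 170 CPM, with 1 of 6 lower without overlap. Over all genes tested, 3.18% lay lower and 5.83% higher without overlap. Summed pars tuberalis markers stood at 1354 to 4814 against 338 to 1402 CPM, with overlap of the sums, and summed macrophage or microglia markers at 898 to 2599 against 534 to 1242 CPM. Summed erythrocyte markers stood at 5649 to 9639 against 1391 to 13206 CPM. Summed tanycyte (1090 to 1625 against 1012 to 1668 CPM) and neuron markers (867 to 1736 against 906 to 1493 CPM) covered similar ranges. Single markers moved in both directions, with log2 fold changes from -1.52 to 1.88 among tanycyte markers and from -0.69 to 1.22 among neuron markers. Without overlap, 1 of 8 tanycyte and 1 of 7 neuron markers lay higher, and 0 of either list lay lower. Summed astrocyte markers stood at 1268 to 4700 against 1776 to 3967 CPM, with 3 of 6 (Agt, Aqp4 and Slc6a11, named after their values were seen) higher without overlap and at an unadjusted p below 0.05. How far a different share of these tissues in the dissected pieces enters the members' values was not tested.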

How the data were processed

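Bulk RNA was read with an oligo-dT full-length protocol without molecular identifiers (Smart-seq2), so PCR copies enter the counts. The deposited bulk values are raw counts per Ensembl gene for 7 libraries; the aligner and counter behind them are not given in the sources used here. The deposited single-cell values are UMI counts per gene and cell that the authors made with Cell Ranger (version 2.0.1 in the submitters' processing notes, on GRCm38/mm10). The notes also name DESeq2, with no role. No column of per-sample values was left unused. All 55450 gene identifiers matched GENCODE M21.

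Genes were filtered with filterByExpr, scaled by TMM and tested with edgeR (4.0.16; quasi-likelihood, legacy method, mutant against control, Benjamini-Hochberg over 20466 genes, threshold 0.05). DESeq2 (1.42.0), limma-voom (limma 3.58.1), other scalings, filters, a covariate and left-out libraries were alternatives. Each replicate is a sample from a separate mouse. The same numbers in both groups did not pair the samples (correlations of deviations -0.40, -0.01 and -0.18).

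Single cells were clustered with Seurat (5.3.0; 20 components, resolution 0.8) on 4835 of 4844 variable genes, the 9 members left out. Scrublet (scanpy 1.11.5) called 3 of 990 cells doublets, and they were kept. Cluster names rest on fixed marker lists; the study's own cell names were not used. Intervals are exact and cover counting error only. The scripts were tested on simulated data.

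The members and the gene lists were chosen with earlier results of these data known. Of the other lists, the 6 genes with the highest mean CPM were named where none passed the test. Some genes of these lists are not reported here.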

Additional observations from a re-analysis of the deposited data

How the results depend on the processing

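With 0 members and 0 genes called as reported, DESeq2 called 3 members and 301 genes, no filter on low counts 2 and 240, and the later quasi-likelihood method of edgeR 0 and 25. A minimum of 10 counts in every library gave 0 members and 13 genes, library sizes alone 0 and 3, upper-quartile scaling 0 and 1, the detected-genes covariate 0 and 1, and limma-voom 0 and 0. Leaving out 1 library gave 0 to 2 members and 0 to 45 genes. The members' median log2 fold change was -0.50 with the covariate, and -1.55 to -0.75 with 1 library left out. The members past the threshold were Mog (-2.14 with DESeq2, -2.16 without a filter, -2.57 to -1.47 with 1 library left out), Opalin (-2.06 with DESeq2, -2.10 without a filter, -2.51 to -1.63 with 1 library left out) and Mal (-1.36 with DESeq2). Of 153 values of single members under an alternative, 148 stayed below 0. Cnp turned to 0.011 with library sizes alone and 0.44 with the covariate, and ran from -0.46 to 0.33 with 1 library left out. Cldn11 ran from -0.71 to 0.033. The replicate block over replicates 1 to 3 called 0 members and 0 genes, with a median of -1.04 against -1.11 for the same 6 libraries without the block, a fit added after seeing the data. The median shift of all genes was 0.13 as reported, 0.25 with library sizes alone, 0.35 with limma-voom and 0.59 without a filter. Of 75 single-cell values 74 stayed within their intervals, and the share of oligodendrocyte-like cells with an Opalin UMI was 88.6% after thinning. Every clustering alternative returned 44 oligodendrocyte-like cells with the same CPM of each member, so those values largely repeat the main result. Depth limits the rare transcripts: 1 to 3 UMIs stand behind several values outside the lineage, and 3 controls cannot show how common a library like control 1 is.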
